A study of Mus musculus with 8 samples.

Results

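The AP-1 and immediate-early transcription factors examined here were the 10 genes *Fos*, *Fosb*, *Fosl1*, *Fosl2*, *Jun*, *Junb*, *Jund*, *Atf3*, *Egr1* and *Myc*, taken from the expression table by symbol and not by their values. They were 10 of 23467 genes in the table, and all 10 were among the 13421 genes that were tested because their mean over the libraries was at least 1 RPKM. RPKM counts the reads on a gene relative to the length of its sequence and to the total of the library, so that levels of different genes can be set side by side. Hepatoblasts, the fetal progenitors of hepatocytes and biliary epithelial cells (BECs), had been isolated from E14.5 livers of B6;129 mixed mice and cultured. Controls were labelled wild type, and mutants Lats1-/-;Lats2f/fl;Alb-cre (L1L2_Alb), a genotype meant to lack the LATS kinases that inhibit the co-activators YAP and TAZ. Cre was driven by the albumin promoter, so that *Lats2* deletion depends on a cell having expressed albumin. RNA of 8 libraries was sequenced, at 3 stages. Hepatoblasts on collagen (iHBs) gave 1 library of each genotype. Cells driven towards hepatocytes by Oncostatin M at 12.5 ng per ml over 5 days (iHPs), and cells driven towards BECs by 14 days on Matrigel (iBECs), each gave 1 control library and a pair of libraries labelled L1L2_Alb. By the study's methods the culture medium of hepatoblasts held serum, epidermal growth factor, hepatocyte growth factor, insulin and dexamethasone, red cells had been lysed, and no sort of the cells was described.

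AP-1 is a family of dimeric transcription factors in which a FOS protein pairs with a JUN protein, or JUN proteins pair with each other, to bind short DNA elements. FOS proteins cannot form stable dimers with one another and depend on a JUN partner. *Fos*, *Fosb*, *Jun*, *Junb*, *Atf3*, *Egr1* and *Myc* are immediate-early genes, whose transcription starts within minutes of growth factor, serum or stress signals without new protein synthesis, and AP-1 occupies many enhancers together with TEAD, the DNA-binding partner of YAP and TAZ. In the liver, JUN is known for its part in hepatocyte survival and regeneration.

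Library size, recovered from short RNA genes, ranged from 18436865 to 33229075 reads, and the 9 members for which whole reads could be recovered (all but *Myc*) had between 66 reads (*Fosb* in control iHP) and 11424 reads (*Egr1* in L1L2_Alb iBEC replicate 1). *Lats1* RNA was at 10.6, 11.2 and 5.38 RPKM in the controls of iHBs, iHPs and iBECs and at 7.12 to 22.7 RPKM in the libraries labelled L1L2_Alb. *Lats2* was at 9.23, 10.1 and 6.90 RPKM in these controls and at 10.9 to 27.6 RPKM in the libraries labelled L1L2_Alb. Against the control of the stage, *Lats1* was lower in 1 of the 5 libraries labelled L1L2_Alb, iHP replicate 2 (7.12 against 11.2 RPKM), and *Lats2* in 0 of 5. The paper reports reduced expression of both LATS kinases in cultured mutant cells, with raised YAP target genes. The RNA levels given here do not show a reduction of this kind across the libraries. In the limma fit over the stages that is used below for the members, *Lats2* was called higher in the libraries labelled L1L2_Alb. Its log2 fold change was 0.90 (SE 0.203, adjusted p = 0.0312 from limma), and that of *Lats1* was 0.44 (SE 0.335, adjusted p = 0.46). RPKM counts reads over a whole gene, so these levels cannot show whether a part of it was deleted. Deletion of the genes was not tested. The genotypes are therefore given as labelled, and L1L2_Alb stands for the label of a library throughout. The labels name no sequencing batch and leave unsaid if a pair of libraries came from different embryos or cultures. The p-values thus measure the spread between these libraries, which may be technical. In the fit with stage and genotype, that spread also holds differences of the genotype effect between stages. Of the BEC markers, *Krt7* and *Krt19* were at 62.3 and 83.7 RPKM in control iBEC against 399.6 and 273 RPKM in control iHB, and *Cftr* was under 1 RPKM in all 8 libraries, so that the iBEC label was not borne out by these markers, whereas the summed BEC list was highest in iBECs through *Spp1* (23271 RPKM in control iBEC). The hepatocyte gene *Alb* was highest among the controls in iBECs, with 2485 RPKM in iHBs, 3088 RPKM in iHPs and 6162 RPKM in iBECs. *Alb* thus does not set control iHP apart as the hepatocyte culture. Among the controls, *Ttr*, *Apoa1*, *Serpina1a*, *Tat* and *Hnf4a* also peaked in iBECs. The hepatocyte genes *Apob* (98.5 RPKM, with 66.9 RPKM for control iBEC) and *Cps1* (340 RPKM, with 123 RPKM for control iBEC) instead peaked in control iHP. In the libraries labelled L1L2_Alb, *Alb* was at 524 RPKM in iHBs, 568 and 526 RPKM in iHPs, and 5499 and 3357 RPKM in iBECs.

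The promoters are given first, because AP-1 genes are known to respond to AP-1 and CREB/ATF proteins at their own promoters. The 250 bases before the annotated start (RefSeq, GRCm38.p6) of *Fos*, *Jun* and *Atf3* are shown, the FOS and JUN paralogs with the largest fitted difference between genotypes and the ATF member, with capitals marking matches to elements of this kind.
Fos, chr12:85473640-85473889, plus strand: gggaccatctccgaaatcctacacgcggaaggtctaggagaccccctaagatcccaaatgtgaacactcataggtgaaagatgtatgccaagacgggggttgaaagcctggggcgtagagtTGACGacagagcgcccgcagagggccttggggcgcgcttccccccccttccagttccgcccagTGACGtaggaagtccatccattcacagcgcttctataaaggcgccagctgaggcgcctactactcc
Jun, chr4:95052223-95052472, minus strand: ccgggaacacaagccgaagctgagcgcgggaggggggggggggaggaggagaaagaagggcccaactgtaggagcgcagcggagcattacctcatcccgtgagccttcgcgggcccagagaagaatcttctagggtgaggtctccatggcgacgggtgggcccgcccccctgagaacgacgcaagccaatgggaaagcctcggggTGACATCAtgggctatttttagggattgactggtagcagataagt
Atf3, chr1:191183334-191183583, minus strand: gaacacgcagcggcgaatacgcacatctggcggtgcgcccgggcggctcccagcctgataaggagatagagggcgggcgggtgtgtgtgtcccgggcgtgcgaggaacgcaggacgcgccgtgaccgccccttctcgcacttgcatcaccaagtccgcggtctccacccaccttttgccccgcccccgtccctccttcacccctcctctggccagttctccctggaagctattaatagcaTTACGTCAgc
In *Fos* the capitals mark 2 copies of TGACG, the left part of the cyclic AMP response element (CRE), at 129 to 125 and at 66 to 62 bases before the start. In *Jun* they mark TGACATCA, an AP-1-like element, at 45 to 38 bases before the start. In *Atf3* they mark TTACGTCA, a CRE-like element, at 10 to 3 bases before the start, which overlaps a TGACG match on the other strand. Both strands were searched, and of 32851 promoter entries of this length 17.8% held TGACG, 2.93% held TGACATCA and 0.447% held TTACGTCA. Promoter entries were used for 7 members, so that *Fosl1*, *Egr1* and *Myc* were not searched for any element. TGACG was also found in *Fosb*, at 60 to 56 bases before the start, and in *Junb*, at 106 to 102 bases, and none of the searched elements was found in *Fosl2* and *Jund*. The AP-1 element TGACTCA (4.46% of entries), the full CRE TGACGTCA (1.55%), the TEAD element GGAATG (12.6%), the E-box CACGTG bound by MYC (6.02%) and the CArG box bound by SRF (1.47%) were not found in these 7 windows. A match is a stretch of letters and not a measured binding site, and the windows leave out all enhancers.

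*Fos*, the founding FOS gene and a target of SRF and CREB, had the lowest adjusted p for genotype of the 10 members. Its level was 24.9 RPKM (control) and 97.6 RPKM (L1L2_Alb) in iHBs, 26.2 RPKM (control), 78.0 and 67.2 RPKM (L1L2_Alb) in iHPs, and 48.3 RPKM (control), 94.5 and 103 RPKM (L1L2_Alb) in iBECs. Every library labelled L1L2_Alb was above every control library, and the genotypes did not overlap. The ratio to the control of the same stage was 3.91 in iHB, 2.97 and 2.56 in iHPs, and 1.96 and 2.14 in iBECs. Fitted with limma on log2(RPKM + 1) with stage as a block, *Fos* rose by a log2 fold change of 1.42 (SE 0.195, adjusted p = 0.0055, two-sided, Benjamini-Hochberg over all genes tested), a fold of 2.67. It was the only member whose genotype effect passed the adjusted threshold of 0.05, so that 1 of 10 members was called, where 9.57% of all genes tested were called, 6.2% higher and 3.37% lower. Complete separation of the genotypes with the libraries labelled L1L2_Alb above was likewise seen for 9.18% of genes tested, and the reverse for 3.7%, with 0 members. The call held in 14 of 15 alternative settings and was lost without the iHP stage (log2 fold change 1.41, adjusted p = 0.074). In the order of its levels, control iHB and control iHP differed little (24.9 and 26.2 RPKM), control iBEC followed, then the L1L2_Alb iHP pair, and L1L2_Alb iHB lay within the range of the L1L2_Alb iBEC pair.

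Markers of other cells also differed between the libraries. The summed level of 6 neutrophil genes was 3162 to 14150 RPKM in the controls and 43.3 to 4493 RPKM in the libraries labelled L1L2_Alb, lower than the control of the same stage in 5 of 5 libraries, and that of 6 erythroid genes was 5.54 to 249.7 RPKM against 2.75 to 47.2 RPKM. The 8 mesenchymal genes summed to 2648 to 4650 RPKM in controls and 737 to 3711 RPKM in libraries labelled L1L2_Alb, and the 6 macrophage genes in the table to 1100 to 2303 RPKM against 780 to 2993 RPKM. The 6 endothelial genes summed to 7.99 to 23.7 RPKM against 2.90 to 21.6 RPKM, with *Cdh5*, *Tek* and *Stab2* under 1 RPKM in every library. The 8 hepatocyte genes summed to 8483 to 16638 RPKM against 7751 to 12580 RPKM, a sum in which the genes moved apart. *Alb*, *Ttr*, *Serpina1a* and *Hnf4a*, 4 of the 8, were below the control of the stage in 5 of 5 libraries, while *Apoa1* was above it in iHBs (8670 against 2451 RPKM) and in iHPs (8351 and 6225 against 4249 RPKM). The 7 BEC genes summed to 2463 to 23443 RPKM in controls and 2331 to 11719 RPKM in libraries labelled L1L2_Alb, with *Krt7* and *Krt19* above and *Spp1* below the control in 5 of 5 libraries. *Krt7* was at 1470 against 399.6 RPKM in iHBs, 1361 and 1167 against 361 RPKM in iHPs, and 319 and 568 against 62.3 RPKM in iBECs. The part of these cell types in the levels of the 10 genes was not tested. In RNA of whole cultures, fewer cells of a type and less RNA per cell cannot be told apart.

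**Figure D1:**
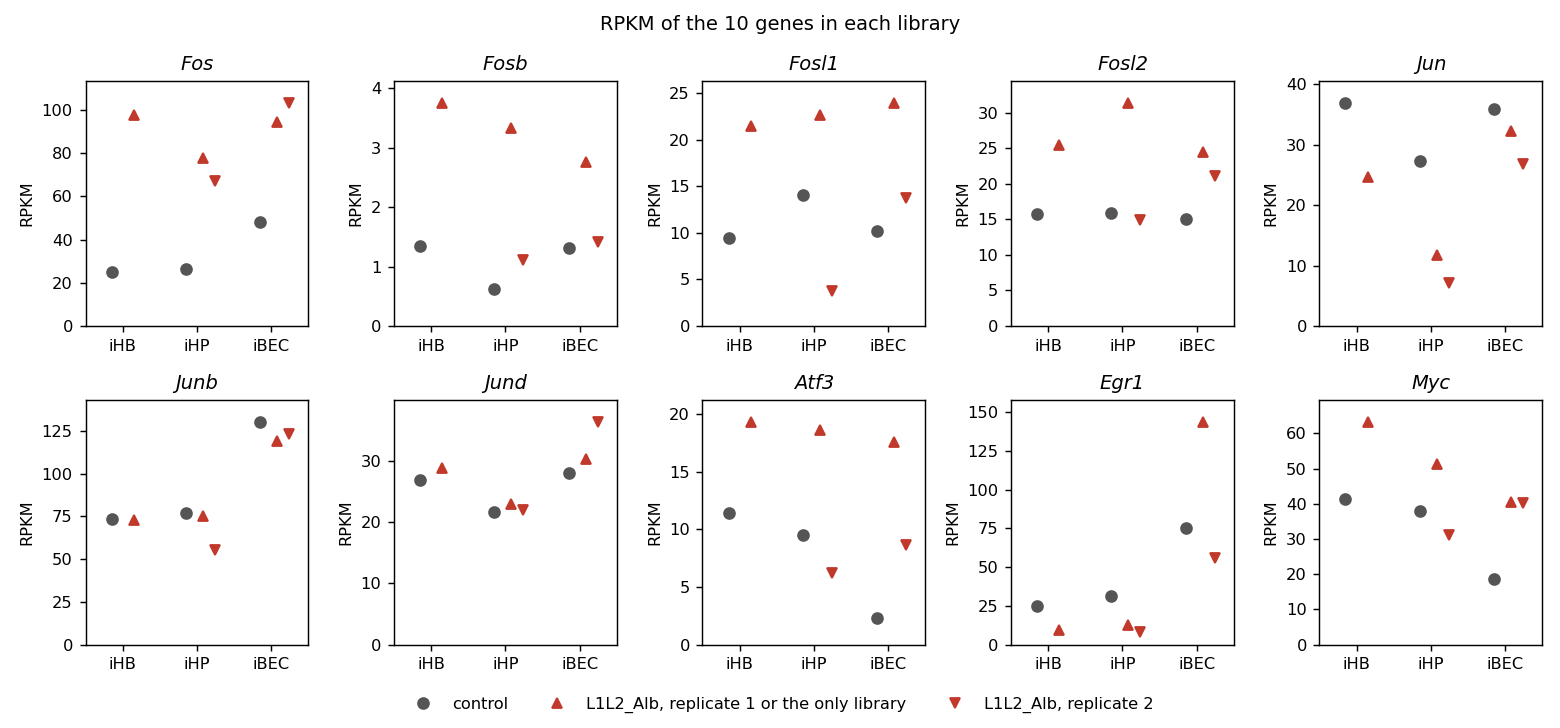
RPKM of each of the 10 genes (y axis, from 0) in the 8 libraries, by stage (x axis); grey circles are the 1 control library of a stage, upward red triangles the only library labelled L1L2_Alb or replicate 1, and downward red triangles replicate 2. All 5 libraries labelled L1L2_Alb lie above the 3 controls for *Fos* (67.2 to 103 against 24.9 to 48.3 RPKM), and L1L2_Alb iHP replicate 2 lies under its control for *Fosl1*, *Fosl2*, *Atf3* and *Myc*.

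The other FOS paralogs were lower than *Fos* in every library, and none passed the threshold for genotype. *Fosb*, a close relative of *Fos* with a strong transactivation domain, was the lowest of the 10 genes. In the same order of control and L1L2_Alb, it had 1.34 and 3.75 RPKM in iHBs, 0.624, 3.33 and 1.12 RPKM in iHPs, and 1.32, 2.76 and 1.42 RPKM in iBECs. Each library labelled L1L2_Alb was above the control of its own stage, as were 22.9% of all genes tested in 5 of 5 libraries, but replicate 2 of iHPs lay below the other controls. The log2 fold change was 0.74 (SE 0.305, adjusted p = 0.166 from limma). The 66 reads in control iHP gave that value an exact Poisson interval (95%, counting error only) of 0.483 to 0.794 RPKM, under the 0.899 to 1.37 RPKM of L1L2_Alb iHP replicate 2.

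*Fosl1*, which encodes FRA1, a FOS protein without the carboxy-terminal transactivation domain, had 9.42 (control) and 21.4 RPKM in iHBs, 14.1 (control), 22.6 and 3.74 RPKM in iHPs, and 10.2 (control), 23.9 and 13.8 RPKM in iBECs. The L1L2_Alb iHP libraries thus lay on opposite sides of their control, with a mean log2 difference of -0.51 (SD 1.64, n = 2). Over the stages the log2 fold change was 0.40 (SE 0.528, adjusted p = 0.696 from limma), with 4 of 5 libraries above their control, and no alternative brought it past the threshold.

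*Fosl2*, which encodes the related FRA2, had 15.7 (control) and 25.4 RPKM in iHBs, 15.8 (control), 31.3 and 14.9 RPKM in iHPs, and 15.0 (control), 24.4 and 21.1 RPKM in iBECs. The 3 controls lay close together and 4 of the 5 libraries labelled L1L2_Alb lay above all of them, while L1L2_Alb iHP replicate 2 lay just below. The log2 fold change was 0.54 (SE 0.243, adjusted p = 0.204 from limma), with 4 of 5 libraries above their control. Without L1L2_Alb iHP replicate 2, the library below its control, *Fosl2* was called at 0.71 (adjusted p = 0.0358).

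Of the JUN paralogs, *Jun* tended to the opposite side from *Fos* and did not pass the threshold. *Jun*, which encodes the JUN protein with the strongest transactivation among the paralogs, had 36.8 (control) and 24.7 RPKM in iHBs, 27.3 (control), 11.8 and 7.05 RPKM in iHPs, and 35.9 (control), 32.2 and 26.8 RPKM in iBECs. Each library labelled L1L2_Alb was below the control of its stage, as were 10.1% of genes tested in 5 of 5 libraries, while the L1L2_Alb iBEC replicate 1 library stayed above control iHP, so that the genotypes overlapped. The control was 1.49 times the library labelled L1L2_Alb in iHB, 2.31 and 3.87 times in iHPs and 1.11 and 1.34 times in iBECs. The fitted log2 fold change was -0.79 (SE 0.270, adjusted p = 0.107 from limma), negative in every one of 15 alternatives with an adjusted p between 0.0517 and 0.392. Its unadjusted p was 0.0185. With *Fos*, *Fosb* and *Myc* it was among 4 of 10 members with an unadjusted p under 0.05, against 26.3% of all genes tested.

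*Junb*, a JUN paralog that restrains *Jun* activity in many settings, was the highest JUN gene in all 8 libraries. It had 73.7 (control) and 72.9 RPKM in iHBs, 76.8 (control), 75.2 and 55.1 RPKM in iHPs, and 130.5 (control), 119 and 123 RPKM in iBECs. The genotypes differed little within a stage, with a log2 fold change of -0.13 (SE 0.168, adjusted p = 0.678 from limma), whereas the iBEC libraries stood apart from the other 5. *Jund*, the paralog that is expressed steadily in most tissues, had 26.8 (control) and 28.7 RPKM in iHBs, 21.6 (control), 22.9 and 22.0 RPKM in iHPs, and 28.0 (control), 30.3 and 36.3 RPKM in iBECs. Its fitted difference was as small as that of *Junb* (log2 fold change 0.13, SE 0.156, adjusted p = 0.657 from limma), and its lowest and highest libraries were control iHP and L1L2_Alb iBEC replicate 2.

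**Figure D2:**
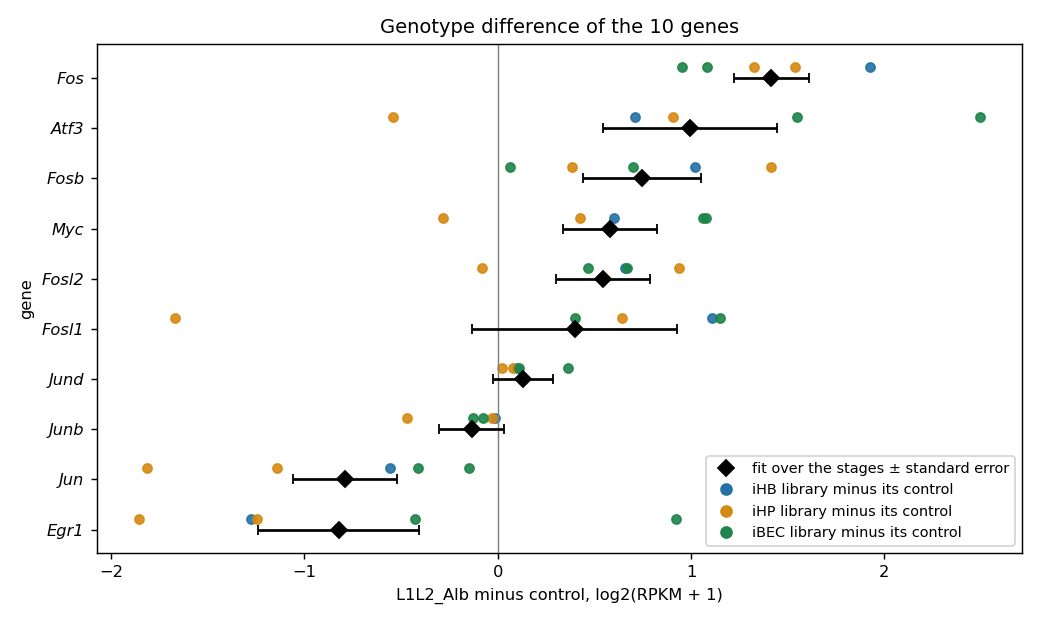
Difference between L1L2_Alb and control on the log2(RPKM + 1) scale (x axis) for the 10 genes (y axis); coloured points are single libraries labelled L1L2_Alb minus the 1 control of their stage, and black diamonds with bars are the limma estimate over the stages ± its standard error. *Fos* is at 1.42 with all 5 points to the right of 0, and *Jun* at -0.79 with all 5 to the left without passing the threshold.

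The paralogs were then set against each other within libraries. *Fos* made up the largest share of the summed FOS RPKM in every library and *Fosb* the smallest, and *Junb* made up 53.6 to 68.4% of the summed JUN RPKM. The FOS sum was 51.4, 56.8 and 74.8 RPKM in control iHB, iHP and iBEC. It was 148 RPKM in L1L2_Alb iHB, 135 and 87.0 RPKM in L1L2_Alb iHPs and 145.5 and 139 RPKM in L1L2_Alb iBECs, so that every library labelled L1L2_Alb was above every control. The JUN sum was 137, 126 and 194 RPKM in these controls, 126 RPKM in L1L2_Alb iHB, 109.9 and 84.2 RPKM in L1L2_Alb iHPs and 182 and 187 RPKM in L1L2_Alb iBECs, in each case below the control of the stage. The FOS sum was thus 0.374, 0.452 and 0.385 times the JUN sum in the controls, and 1.17 times in L1L2_Alb iHB, 1.23 and 1.03 times in L1L2_Alb iHPs and 0.801 and 0.747 times in L1L2_Alb iBECs. These sums were formed after the levels of the genes were known and were not tested.

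The ratio of *Fos* to *Jun* was 0.677, 0.961 and 1.34 in control iHB, iHP and iBEC. It ranged from 2.93 to 9.53 in the libraries labelled L1L2_Alb, with the highest value in L1L2_Alb iHP replicate 2. Like the sums, this ratio was formed after the levels were known and was not tested. It joins the FOS and JUN paralogs with the largest fitted differences, so that it adds nothing independent of their levels. The share of *Jun* in the JUN sum was 26.8, 21.7 and 18.5% in the controls. It was 19.6% in L1L2_Alb iHB, 10.8 and 8.38% in L1L2_Alb iHPs and 17.8 and 14.3% in L1L2_Alb iBECs, again below the control of each stage. Of 9 pairs within the families, the effect of genotype on the log2 ratio was largest for *Fos* over *Fosl1* (1.02, higher in 4 of 5 libraries, two-sided exact permutation p = 0.222, adjusted 0.333) and for *Jun* over *Jund* (-0.92, lower in 5 of 5, exact p = 0.0556, adjusted 0.2). *Fos* over *Fosl2* gave 0.87 and *Fos* over *Fosb* 0.67 (each higher in 5 of 5, exact p = 0.111, adjusted 0.2). *Jun* over *Junb* gave -0.66 (lower in 5 of 5, exact p = 0.0556, adjusted 0.2). The genotypes were permuted within stages in 18 arrangements, of which the smallest p is 0.0556, so that no pair could pass 0.05, and these p-values do not show that the paralogs changed alike. For *Junb* over *Jund* (-0.26) the exact p was 0.111, and for the pairs among *Fosb*, *Fosl1* and *Fosl2* it was 0.389 to 0.833.

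**Figure D3:**
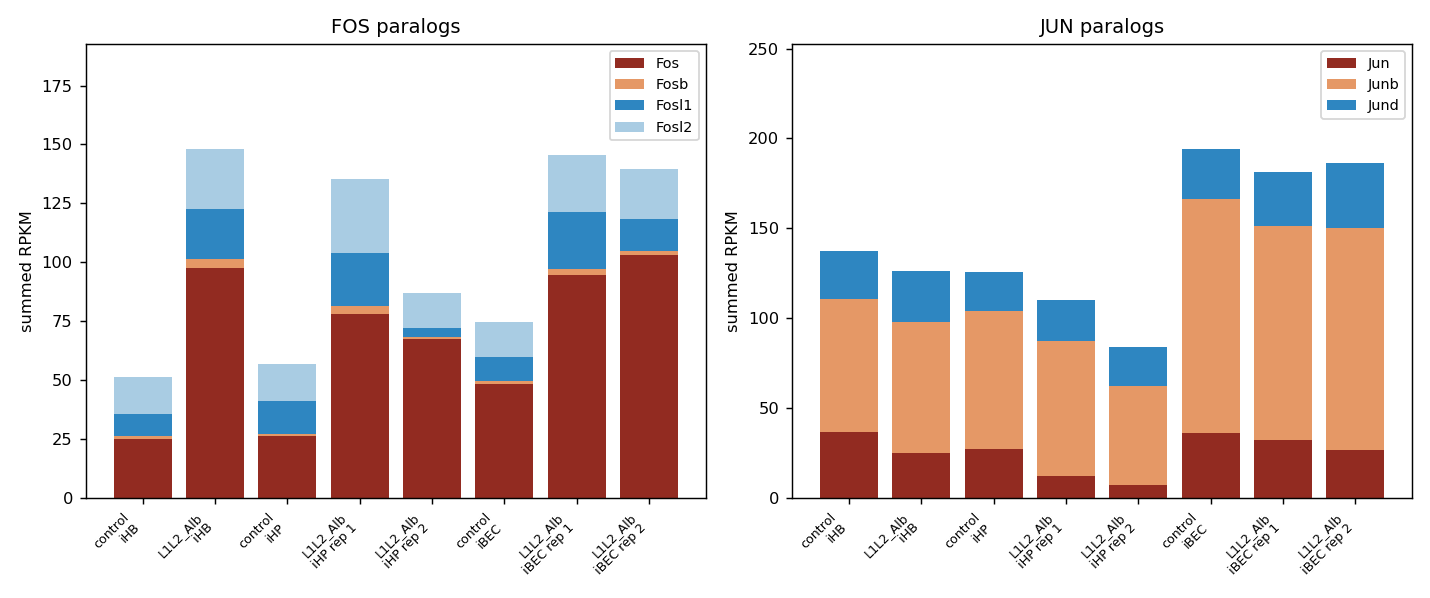
Summed RPKM (y axis, from 0) of the 4 FOS paralogs (left) and the 3 JUN paralogs (right) in each of the 8 libraries (x axis), each bar stacked by gene. The FOS sum is 51.4 to 74.8 RPKM in the controls and 87.0 to 148 RPKM in the libraries labelled L1L2_Alb, mostly through *Fos*, and *Junb* is the largest part of every JUN bar.

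*Atf3*, a stress-induced ATF protein that pairs with JUN proteins, had 11.4 (control) and 19.3 RPKM in iHBs, 9.46 (control), 18.6 and 6.17 RPKM in iHPs, and 2.28 (control), 17.5 and 8.62 RPKM in iBECs. The ratio to the control was 7.68 and 3.77 in iBECs, the former the largest of any member in any library, while L1L2_Alb iHP replicate 2 was below its control. Over the stages the log2 fold change was 1.00 (SE 0.451, adjusted p = 0.208 from limma), with 4 of 5 libraries above their control, and none of 15 alternatives brought it past the threshold (adjusted p 0.0628 to 0.642). *Myc*, the growth regulator that acts with MAX at E-boxes, had 41.4 (control) and 63.3 RPKM in iHBs, 38.0 (control), 51.4 and 31.0 RPKM in iHPs, and 18.7 (control), 40.6 and 40.1 RPKM in iBECs. Control iBEC was the lowest library, and the other control libraries lay among the L1L2_Alb ones. In iBECs the mean log2 difference was 1.07 (SD 0.0106, n = 2, both against the same control). The log2 fold change of *Myc* was 0.58 (SE 0.243, adjusted p = 0.176 from limma), with 4 of 5 libraries above their control, and it was called without L1L2_Alb iHP replicate 2 (0.74, adjusted p = 0.0428).

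*Egr1*, a zinc-finger factor that is induced by ERK signalling through SRF, differed between stages more than between genotypes. It had 24.7 (control) and 9.63 RPKM in iHBs, 31.1 (control), 12.5 and 7.87 RPKM in iHPs, and 75.4 (control), 144 and 55.7 RPKM in iBECs. The libraries labelled L1L2_Alb were below the control in iHBs and iHPs and lay on both sides of it in iBECs, where the log2 differences were 0.92 and -0.43. The genotype fit gave a log2 fold change of -0.82 (SE 0.417, adjusted p = 0.26 from limma), with 4 of 5 libraries below their control. *Egr1* was called lower without L1L2_Alb iBEC replicate 1 (-1.13, adjusted p = 0.0443) and without the iBEC stage (-1.43, adjusted p = 0.0287). Whether the genotype effect differed between stages was tested by limma's moderated F test on the 6 conditions. It called 0 of 13421 genes (733 at an unadjusted p under 0.05), with an unadjusted p of 0.132 for *Egr1*, 0.161 for *Jun* and 0.195 for *Atf3*, and with 2 residual degrees of freedom this does not show that the effects were equal.

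Across the stages, *Egr1* and *Junb* were the members that stood apart, both highest in iBECs. Every iBEC library was above every iHB and iHP library for *Egr1* (55.7 to 144 against 7.87 to 31.1 RPKM) and for *Junb* (119 to 130.5 against 55.1 to 76.8 RPKM), as was true of 4.72% of all genes tested. In the limma fit with genotype as a covariate, *Egr1* was higher in iBECs than in iHBs by 2.51 on the log2 scale (SE 0.520, adjusted p = 0.0302), a comparison in which 5.72% of genes tested were called, 2.94% higher. The median of all genes was -0.253 in that comparison and -0.00324 after upper-quartile scaling. *Junb* gave 0.78 there (SE 0.210, adjusted p = 0.0736) and was called with upper-quartile scaling (1.06, adjusted p = 0.0273) and with quantile normalization (1.03, adjusted p = 0.0287). *Egr1* lost its call with no filter on low values, without L1L2_Alb iHP replicate 1 and without L1L2_Alb iBEC replicate 2 (adjusted p 0.0811, 0.0578 and 0.0566). *Junb* was also called without L1L2_Alb iHP replicate 2 (0.76, adjusted p = 0.0283). *Myc* gave -0.79 (SE 0.304, adjusted p = 0.162; without that library -0.82, adjusted p = 0.045) and *Fos* 0.40 (adjusted p = 0.321), and no other member was called.

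Against iHPs, *Egr1* was higher in iBECs by 2.45 (SE 0.461, adjusted p = 0.0291 from limma) and *Junb* by 0.85 (SE 0.186, adjusted p = 0.045), where 4.12% of genes tested were called, 2.45% higher. These calls held in 6 and in 5 of 10 alternatives. That of *Egr1* was lost without either L1L2_Alb iHP library (adjusted p 0.105 without replicate 1 and 0.0541 without replicate 2) and without L1L2_Alb iBEC replicate 2 (0.0722). That of *Junb* was lost without L1L2_Alb iHP replicate 1 (adjusted p 0.091) and without L1L2_Alb iBEC replicate 1 (0.139) or replicate 2 (0.137). *Jun* gave 1.18 (SE 0.299, adjusted p = 0.0688). This comparison shares its iBEC libraries with the one against iHBs. Between iHPs and iHBs 0 genes of the table were called by limma (1158 at an unadjusted p under 0.05, 0 to 4 in the alternatives), and the member with the largest value was *Jun* (-0.99, adjusted p = 0.468). The iBEC libraries differed from the others in culture support and time and in several marker sums. The endothelial sum was 20.2 to 23.7 RPKM in iBECs against 2.90 to 9.44 RPKM elsewhere, mostly *Lyve1* (17.2 to 22.1 RPKM in iBECs), whereas *Pecam1* was lower in control iBEC (0.574 RPKM) than in the other controls (4.01 and 4.18 RPKM). The erythroid sum was lower in iBECs (2.75 to 6.996 against 12.8 to 249.7 RPKM), and the BEC sum was higher (6637 to 23443 against 2331 to 3770 RPKM). Within the libraries labelled L1L2_Alb, the macrophage sum was 2452 and 2993 RPKM in iBECs against 780 and 1305 RPKM in iHPs. The part of these cells in the differences between stages was not tested.

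The L1L2_Alb iBEC and iHP conditions, each with 2 libraries, were the only conditions with replicates on both sides. *Egr1* was higher in iBECs by 3.05 (SE 0.473, adjusted p = 0.023 from limma) and *Jun* by 1.58 (SE 0.329, adjusted p = 0.0497), 2 of 10 members where 3.67% of all genes tested were called, 3.16% higher. The levels in L1L2_Alb iHPs against L1L2_Alb iBECs were 12.5 and 7.87 against 144 and 55.7 RPKM for *Egr1*. For *Jun* they were 11.8 and 7.05 against 32.2 and 26.8 RPKM. The call of *Jun* lay at the threshold, held in 4 of 12 alternatives and was lost when any of the 4 libraries was left out (adjusted p 0.0842 to 0.414). *Egr1* kept its call in 8 of 12 and lost it without L1L2_Alb iHP replicate 1 (adjusted p = 0.0984), iHP replicate 2 (0.105) or iBEC replicate 1 (0.133) and with no filter on low values (0.204). *Junb* gave 0.90 (adjusted p = 0.161), *Fosl1* 0.86 (adjusted p = 0.58), *Jund* 0.54 (adjusted p = 0.352), *Fos* 0.44 (adjusted p = 0.459) and *Atf3* 0.17 (adjusted p = 0.906), and *Fosb*, *Fosl2* and *Myc* lay within 0.1 of 0.

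The genes around AP-1 were taken as lists of known members, chosen with earlier results of these data known. Of 14 other AP-1 proteins and dimer partners 12 were tested, of which 3 rose and 1 fell between the genotypes, where 6.2% of all genes tested were called higher and 3.37% lower. The median log2 fold change was 0.04 over the list and 0.06 over all genes tested. *Mafk*, a small MAF protein without a transactivation domain, was at 18.8, 16.6 and 10.98 RPKM in control iHB, iHP and iBEC and at 28.0 to 96.2 RPKM in the libraries labelled L1L2_Alb, and it rose by 1.90 (adjusted p = 0.00254 from limma). The related small MAF gene *Maff* rose by 1.16 (adjusted p = 0.0159) and *Nfe2l1*, a partner of small MAF proteins, by 0.73 (adjusted p = 0.036). *Atf5*, an ATF protein of the liver, fell by 1.12 (adjusted p = 0.0391), from 69.9, 87.2 and 119 RPKM in the controls. *Nfe2l1* and *Atf5* kept their calls in 6 and 8 of 15 alternatives. *Nfe2l1* lost its call without L1L2_Alb iHP replicate 1 (adjusted p = 0.0637) or iBEC replicate 2 (0.0801), and *Atf5* without L1L2_Alb iHP replicate 1 (0.0742), iHP replicate 2 (0.0664) or iBEC replicate 1 (0.0527). Without the iHP stage the list had 0 calls in limma.

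Of 24 other immediate-early genes 21 were tested, of which 5 rose and 0 fell, against 6.2% higher and 3.37% lower over all genes tested (median log2 fold change 0.35, 3 to 8 higher and 0 to 1 lower in the alternatives). *Cyr61*, a secreted matrix protein and YAP target, was at 194, 161 and 91.4 RPKM in the controls and at 349 to 848 RPKM in the libraries labelled L1L2_Alb, a rise of 1.93 (adjusted p = 0.00222 from limma). *Dusp5* and *Dusp1*, phosphatases that inactivate ERK and stress kinases, rose by 1.83 (adjusted p = 0.0019) and 1.53 (adjusted p = 0.00419). *Gadd45b*, a stress-response gene, rose by 1.84 (adjusted p = 0.00445), from 53.2, 28.4 and 7.51 RPKM in control iHB, iHP and iBEC to 119 RPKM in L1L2_Alb iHB, 108 and 88.0 RPKM in iHPs and 42.9 and 47.8 RPKM in iBECs. The fifth gene was *Csrnp1* (1.45, adjusted p = 0.0104), which the rule for named genes left out and which lost its call without the iHB stage (adjusted p = 0.0699). Each of the 4 genes named by the rule was above the control of the stage in 5 of 5 libraries. *Dusp1* and *Gadd45b* lost their calls without the iHP stage (adjusted p 0.0546 and 0.0638), and *Dusp5* and *Cyr61* kept theirs in 15 of 15 alternatives.

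The list of ERK feedback genes holds genes induced by ERK, many of which, though not all, restrain it. Of these 11 genes, 3 rose and 0 fell, against 6.2% and 3.37% of all genes tested (median 0.26, 0 to 4 higher in the alternatives). These were *Phlda1* (1.04, adjusted p = 0.0162 from limma), the ERK phosphatase gene *Dusp6* (1.02, adjusted p = 0.0262) and *Spry2*, an inhibitor of receptor signalling (1.06, adjusted p = 0.0329). *Dusp6* was at 42.7, 31.0 and 37.7 RPKM in the controls and at 53.97 to 106 RPKM in the libraries labelled L1L2_Alb. *Dusp6* lost its call without L1L2_Alb iBEC replicate 2 (adjusted p = 0.0615), and *Spry2* without that library (0.0771) or L1L2_Alb iHP replicate 1 (0.0676). The list had 0 calls in limma without the iHB stage and without the iHP stage. Of 21 kinases and SRF factors that act upstream of these genes 20 were tested, and 0 passed the threshold in limma (median 0.10, 0 higher and 0 to 1 lower in the alternatives). Of these 20, 2 were at an unadjusted p under 0.05 in limma, against 26.3% of all genes tested. *Mapk8*, which encodes the JUN kinase JNK1, gave 0.57 (adjusted p = 0.0917) and *Rps6ka1*, an ERK-activated kinase, -0.75 (adjusted p = 0.123).

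AP-1 target genes had 4 calls higher and 1 lower among 19 tested of 22, against 6.2% higher and 3.37% lower over all genes tested (median 0.29, 2 to 5 higher and 0 to 1 lower in the alternatives). *Ptgs2*, the inducible prostaglandin synthase, had the largest difference of the genes named here. It had 24.7 (control) and 367 RPKM in iHBs, 12.4 (control), 134 and 198 RPKM in iHPs, and 4.27 (control), 25.6 and 68.9 RPKM in iBECs, a rise of 3.47 (SE 0.330, adjusted p = 0.00149 from limma). *Hbegf*, an EGF receptor ligand, rose by 2.16 (adjusted p = 0.00149), from 26.3, 23.2 and 9.16 RPKM in the controls to between 32.4 and 148 RPKM. *Plaur*, the urokinase receptor, rose by 1.38 (adjusted p = 0.019), and the remaining gene that rose was *Vegfa*, an endothelial growth factor (0.91, adjusted p = 0.0402), named outside the rule. *Spp1*, osteopontin, which is also the most abundant gene of the BEC list, fell by 1.50 (adjusted p = 0.0306), from 1706, 3188 and 23271 RPKM in the controls to 428 RPKM in L1L2_Alb iHB, 1068 and 2045 RPKM in iHPs and 6027 and 10760 RPKM in iBECs. *Ptgs2* and *Hbegf* kept their calls in 15 of 15 alternatives. *Vegfa* kept its call in 5 and lost it, among others, with upper-quartile scaling (adjusted p = 0.0756) and without L1L2_Alb iHP replicate 1 (0.0662), iBEC replicate 1 (0.0699) or iBEC replicate 2 (0.07). *Spp1* kept its call in 7 and lost it without L1L2_Alb iHP replicate 1 (adjusted p = 0.0534) or iBEC replicate 1 (0.0532).

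Around *Myc*, the 12 genes of its network had 0 calls higher and 1 lower, against 6.2% and 3.37% of all genes tested (median -0.05). The gene that fell was *Mlxipl*, which encodes the glucose-responsive factor ChREBP, from 4.96, 12.5 and 17.5 RPKM in the controls to between 0.745 and 11.97 RPKM (log2 fold change -1.71, adjusted p = 0.0214 from limma; without L1L2_Alb iHP replicate 1 0.051). Of 20 MYC target genes, mostly of ribosome and nucleotide synthesis, 1 rose and 0 fell. Of all genes tested, 9.57% were called in either direction. The MYC target list had a median of -0.13 over the stages, with 15 estimates below 0. Its median log2 difference from the control changed sign between stages: iHB -0.16, iHP -0.30, iBEC 0.22. These stage medians were not tested. The gene that rose was *Odc1*, the rate-limiting enzyme of polyamine synthesis (0.77, adjusted p = 0.0452), which kept its call in 3 of 15 alternatives and lost it when any of the 4 paired libraries was left out (adjusted p 0.0521 to 0.0698). Against 26.3% of all genes tested, 1 of 7 heat shock genes was at an unadjusted p under 0.05 in limma. These heat shock genes also respond to handling, and 0 of them passed the adjusted threshold in any setting (median 0.20). Split by stage, the median log2 difference of this list from the control reached 0.795 for iBECs. For iHBs it came to -0.02, and for iHPs to -0.10, and these stage medians were likewise not tested. Among the heat shock genes *Hsp90aa1* gave 0.90 (adjusted p = 0.0705) and *Dnajb1* 0.33 (adjusted p = 0.327). The list summed to 1270 to 2385 RPKM in the controls and 1599 to 3134 RPKM in the libraries labelled L1L2_Alb.

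**Figure D4:**
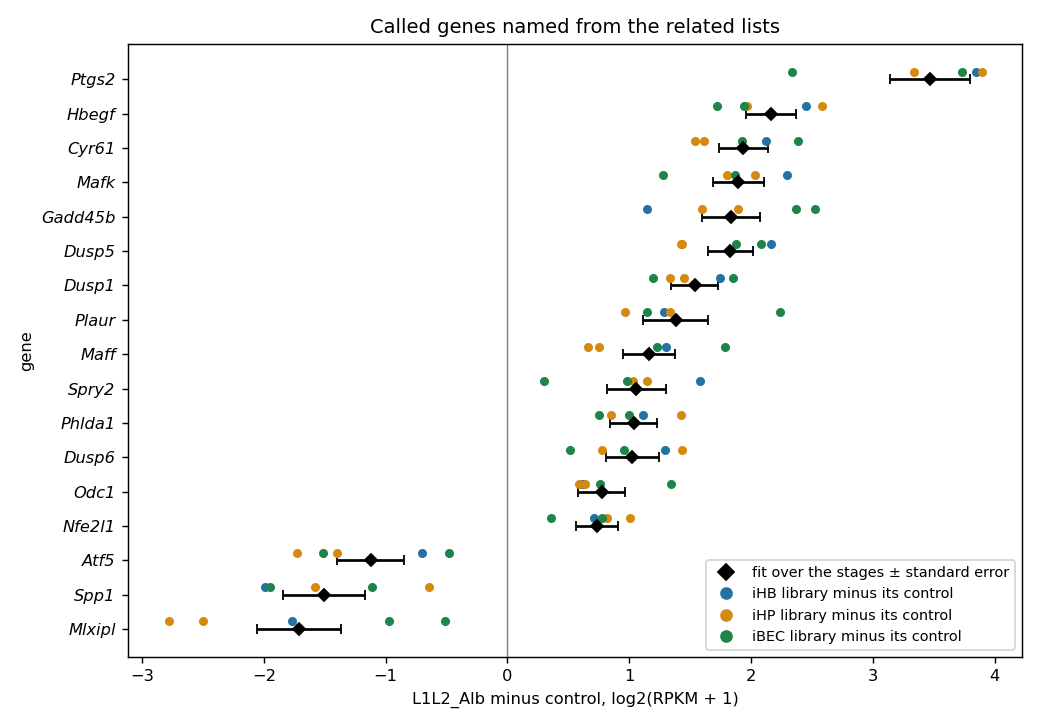
Difference between L1L2_Alb and control on the log2(RPKM + 1) scale (x axis) for the genes called and named from the related lists (y axis); coloured points are single libraries labelled L1L2_Alb minus the control of their stage, and black diamonds with bars are the limma estimate ± its standard error. *Ptgs2* is highest at 3.47, and *Atf5*, *Spp1* and *Mlxipl* have all 5 libraries below 0.

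For *Fos*, *Fosl1*, *Junb* and *Myc*, the genes with the most similar levels were sought among 9729 genes by Pearson's r of log2(RPKM + 1) over the 8 libraries, which share stages and genotypes, and r is given as a description. For *Fos* they included *Plcxd1* (r = 0.93) and *4930486L24Rik* (r = 0.93). *Plcxd1* had 3.77 (control) and 8.49 RPKM in iHBs, 3.51 (control), 6.81 and 6.90 RPKM in iHPs, and 3.62 (control), 7.67 and 8.93 RPKM in iBECs, so that its genotypes did not overlap, as for *Fos*. For *Fosl1* they were *Zfp259* (0.97), *Flcn* (0.93) and *Fkbpl* (0.92), each lowest in L1L2_Alb iHP replicate 2 like *Fosl1*. For *Junb* they were *4930471I20Rik* (0.97), the acetyl-CoA synthetase gene *Acss2* (0.96) and the water channel gene *Aqp1* (0.95), each highest in iBECs. For *Myc* they were *Atxn2* (0.98), *Srxn1* (0.98) and the mechanosensitive channel gene *Piezo1* (0.97), each lowest in control iBEC.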

How the data were processed

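RNA was prepared with the TruSeq RNA v2 kit and sequenced on HiSeq 2000 equipment. The submitters' processing notes name Bowtie 0.12.2 and mm8, while the counting method and annotation are not given in the sources used here. The authors deposited 1 table of RPKM values (inferred from whole-read steps of short RNA genes; the same unit per fragment cannot be told apart), without scaling between libraries. Its 23471 entries included 4 of 2 repeated symbols, which were left out.

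RPKM values were changed to log2(RPKM + 1), which understates changes of low genes. Only genes averaging 1 RPKM or more were tested, in R 4.3.3 by limma 3.58.1 (functions lmFit and eBayes, prior variance trended), with stage and genotype for the additive fit (4 residual degrees of freedom) and with the 6 conditions for the interaction and the L1L2_Alb pairs (2 residual degrees of freedom). Adjusted p-values are two-sided, by the Benjamini-Hochberg method over all 13421 genes tested, with a threshold of 0.05. Each stage had 1 control library, so single stages were not tested. Reads per library were recovered from at least 189 short RNA genes, and whole reads of genes within a tolerance of 0.002 for 9 of 10 members and 79.4% of 141 listed genes. These reads gave depths and exact Poisson intervals, which cover counting error only. Promoter entries came from RefSeq (GRCm38.p6), which is not the build of the table. Scripts were tested on simulated data. Python 3.11.15 with pandas 2.3.3, numpy 2.4.6, scipy 1.17.1 and matplotlib 3.10.9 was used.

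The members and lists were chosen with earlier results of these data known. The genes named are the 10 members, up to 4 genes past the threshold with the lowest adjusted p of each other list (up to 2 with the lowest p where none passed) and the 3 genes most alike to *Fos*, *Fosl1*, *Junb* and *Myc* among genes averaging 5 RPKM or more. The result of 1 gene that this rule names is not reported here. Alternatives were a pseudocount of 0.1, upper-quartile scaling (percentile 75), quantile normalization, no filter, a higher filter of 5 RPKM, an untrended prior, omission of single L1L2_Alb libraries of the pairs or of whole stages, averaged pairs, other estimates of the spread and a replicate block. The study's methods give 6 days of Oncostatin M, where the labels give 5.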

Additional observations from a re-analysis of the deposited data

How the results depend on the processing

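The number of genes called for genotype, 1284 (832 higher, 452 lower), became 686 with no filter on low values, 326 without the iHB stage, 132 without the iHP stage and 793 to 1227 when 1 L1L2_Alb library was left out. The split was 612 higher and 575 lower with upper-quartile scaling, 687 and 607 with quantile normalization and 523 and 873 without the iBEC stage. Between iHPs and iHBs, 0 calls became 2 with upper-quartile scaling, 4 with a mean of at least 5 RPKM and 0 to 1 without a library. Between iBECs and iHBs, 768 calls (395 higher, 373 lower) became 492 with no filter and 488 to 1739 without a library, the highest without L1L2_Alb iHP replicate 2, with a split of 496 to 177 under upper-quartile scaling. Between iBECs and iHPs, 553 calls (329 higher, 224 lower) became 211 with no filter and 156 to 987 without a library, with a split of 458 to 169 under upper-quartile scaling. Between the L1L2_Alb iBEC and iHP pairs, 492 calls became 0 with no filter (3140 at an unadjusted p under 0.05), 904 with a replicate block and 0 to 126 without a library, 0 without either iHP library. The cause of these shifts was not tested. The labels leave unsaid if the replicate numbers pair the samples. The deviations of replicate 1 in iHPs and iBECs had a correlation of -0.02 over 13421 genes. With 1 pair of libraries in each condition, this value cannot settle the pairing. The 46 values named for single genes included the interaction tests of *Egr1* and *Jun*, which have no direction. No direction of the other values reversed in the alternatives. Over all of these values and alternatives, 516 results kept their side of the threshold, 100 lost their call and 10 gained one. No control library could be left out alone. Statements on *Fosb* rest on 66 to 406 reads a library, and those on single stages on 1 control library.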
